A study of Mus musculus with 60 samples.

Results

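Creatine kinases and the genes that bring creatine to them were followed through the bulk RNA data: Ckm, Ckmt2, Ckb, Slc6a8 and Gatm. They were the rows of the count table whose MGI symbol was one of these names, 5 genes of the 54352 in the table, each found once. The table held 60 libraries, made by 3′ digital gene expression, from 20 C57BL/6JN mice that each gave subcutaneous white fat (scWAT), visceral white fat (vWAT) and triceps muscle. In each tissue there were 4 groups of 5 mice: HFD trained, HFD sedentary, chow trained and chow sedentary. HFD is a high-fat diet with 60% of energy from fat and chow a standard diet with 10%, both given for 6 weeks; training was voluntary wheel running for the last 3 weeks. The sample labels give an age of 12 weeks for all groups, and the mice had fasted for 6 hours, with the wheels locked for 24 hours, before collection. The study set the response to diet against the response to training across the 3 tissues.

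Creatine kinases move a phosphate group between ATP and creatine, so that phosphocreatine can buffer ATP where demand is high. Ckm encodes the cytosolic kinase of muscle, Ckmt2 the sarcomeric kinase of the mitochondrial intermembrane space, and Ckb the cytosolic kinase of brain and many other tissues. Slc6a8 encodes the creatine transporter of the cell membrane. Gatm encodes the enzyme of the first step of creatine synthesis, which moves the amidino group of arginine to glycine in kidney and other organs. In mice, creatine cycling has also been described in thermogenic fat, where Ckb takes part.

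Ckm lies on chr7:19404776-19422841 (plus strand, ENSMUSG00000030399) and Ckmt2 on chr13:91853387-91876885 (minus strand, ENSMUSG00000021622), on GRCm38. Ckb lies on chr12:111669361-111672338 (minus strand, ENSMUSG00000001270), Gatm on chr2:122594467-122611303 (minus strand, ENSMUSG00000027199) and Slc6a8 on chrX:73673150-73682502 (plus strand, ENSMUSG00000019558). The RefSeq promoter table for GRCm38.p6 held windows of 300 bases for 4 of the 5 genes. The windows of the pair of muscle kinases are printed because the results in triceps turn on them. Capitals mark E-boxes, CANNTG searched on both strands, which are known as sites of myogenic and other helix-loop-helix factors. The windows are chr7:19410844-19411143 on the plus strand for Ckm and chr13:91876836-91877135 on the minus strand for Ckmt2, each from 250 bases before the start to 50 after it.
Ckm: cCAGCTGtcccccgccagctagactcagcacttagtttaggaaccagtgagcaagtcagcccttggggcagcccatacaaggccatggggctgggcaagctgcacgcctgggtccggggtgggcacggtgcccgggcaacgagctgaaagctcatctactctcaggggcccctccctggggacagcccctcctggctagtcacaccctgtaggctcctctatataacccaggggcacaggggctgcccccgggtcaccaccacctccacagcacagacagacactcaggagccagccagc
Ckmt2: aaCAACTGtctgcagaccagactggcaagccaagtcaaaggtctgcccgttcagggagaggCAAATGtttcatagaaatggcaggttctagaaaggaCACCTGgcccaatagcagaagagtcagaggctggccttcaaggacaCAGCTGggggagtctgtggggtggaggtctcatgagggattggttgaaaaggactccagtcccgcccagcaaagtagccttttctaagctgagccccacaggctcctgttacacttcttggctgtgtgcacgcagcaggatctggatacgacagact
The Ckm window held 1 E-box and the Ckmt2 window 4, whereas the Gatm window held 1 and the Ckb window none. Of 32851 promoter windows of the same length, 72.3% held at least 1 E-box. AAGGTCA, known as the half-site of the estrogen-related receptors, was in none of the 4 windows and in 4.72% of all windows. TATAAA stood in the Ckb window, as in 13.6% of all windows, and a MEF2 site overlapping it was found there, as in 1.86% of all windows. A CArG box was in none of the 4 windows and in 1.63% of all. These are matches of letters in a fixed window, and no binding was measured.

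Library totals lay between 505336 and 744581 estimated counts, and a count of 0 in a library allows up to 3 counts, or 4.03 to 5.94 CPM (reads of a gene per 1000000 reads of its library); such limits cover counting error only. No replicate pair of the 120 within groups was identical. Each column header holds a library code, and the codes were cut here into blocks of 12 consecutive codes. Neither the labels nor the headers mark where a block starts or call the blocks runs or pools. The organ reads below describe these blocks and are no test of them. Some blocks held transcripts of other organs. In vWAT, a block of 5 chow libraries (3 sedentary, 2 trained) held 435 to 622 reads of 9 heart markers, against 0 to 14 in the other vWAT libraries. A block of 3 HFD libraries in vWAT (2 trained, 1 sedentary) held 174 to 264 reads of 10 intestinal markers and 1792 to 2774 reads of 15 fast muscle markers, against 1 to 19 and 75 to 249 in the other 17. In triceps, 3 HFD libraries (2 trained, 1 sedentary) held 115 to 152 reads of 8 brain markers, against 27 to 62 in the others. Also in triceps, 5 chow libraries held 146 to 189 intestinal reads, against 0 to 3. These 5 libraries and the 3 vWAT libraries with intestinal reads have codes in the same block of 12. Reads of 8 liver markers also differed by block: in scWAT they were 407 to 604 in the block of 9 and 19 to 156 in the block of 11. In vWAT they were 618 to 1778 in the block of 3, 85 to 133 in the block of 5 and 84 to 3774 in the block of 12, and in triceps 0 to 69. In scWAT, fast muscle marker reads ran from 114 to 63615. Reads of 9 B cell and lymph node markers differed there by diet. They were 6 to 1500 in chow sedentary and 5 to 1200 in chow trained libraries. On HFD they were 9 to 26 in sedentary and 9 to 22 in trained libraries. Adipocyte markers were present in every fat library, at 16406 or more reads.

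Across tissues, the pair of muscle kinases was highest in triceps in every group, whereas Ckb was lowest there. Ckm ranged from 5854 to 12774 CPM in triceps, with a median of 9008, from 7.15 to 8239 CPM in scWAT, with a median of 121, and from 0 to 250.02 CPM in vWAT, with a median of 2.36. Ckmt2 ranged from 969 to 4087 CPM in triceps (median 2138), from 0 to 344 CPM in scWAT (median 9.90) and from 0 to 155 CPM in vWAT (median 0). Triceps did not overlap either depot for Ckmt2, while for Ckm 1 scWAT library, at 8239 CPM, lay within the triceps range. Ckb had a median of 48.2 CPM in vWAT, 23.3 CPM in scWAT and 3.57 CPM in triceps. Slc6a8 had medians of 14.9 CPM in triceps, 5.95 CPM in vWAT and 4.66 CPM in scWAT, and Gatm of 11.3 CPM in scWAT, 8.78 CPM in vWAT and 2.83 CPM in triceps. In both fat depots Slc6a8 rested on 0 to 10 reads, near what a count of 0 allows. In bulk tissue, fewer cells of a type and less RNA per cell cannot be told apart.

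**Figure D1:**
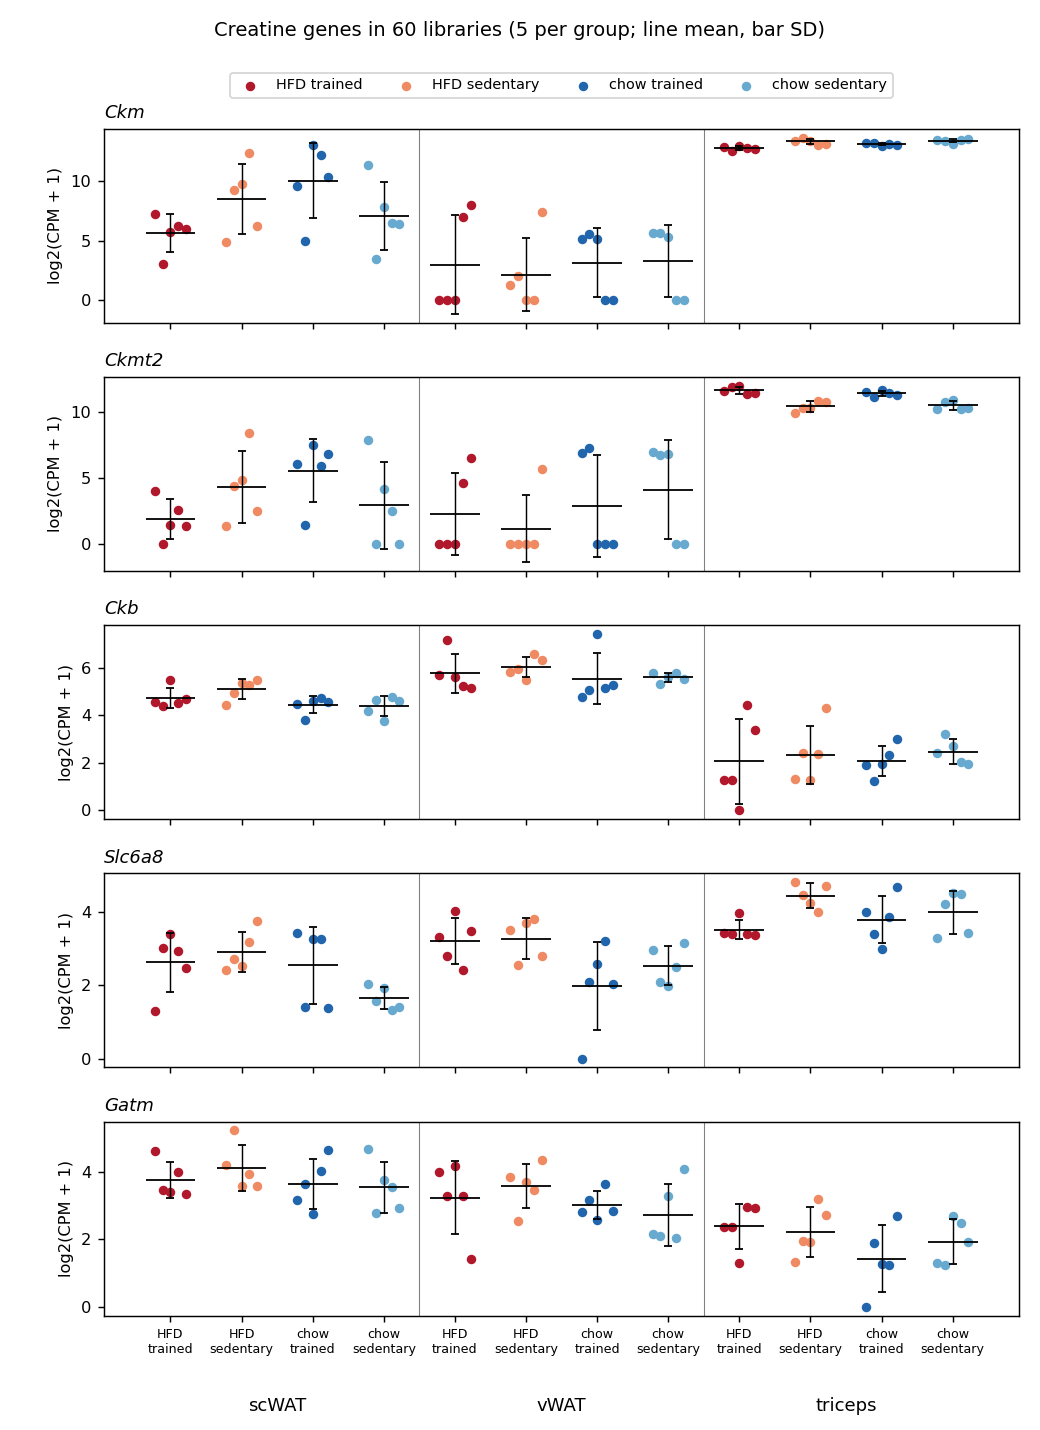
Each panel shows 1 gene as log2(CPM + 1) in the 12 groups, with 5 libraries per group as points, the mean as a line and the SD as a bar. Ckm and Ckmt2 are tightly grouped in triceps (5854 to 12774 and 969 to 4087 CPM) and spread from 7.15 to 8239 and from 0 to 344 CPM in scWAT, while Ckb has medians of 48.2 CPM in vWAT, 23.3 CPM in scWAT and 3.57 CPM in triceps.

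The clearest response was that of Ckmt2 in triceps, which was higher in trained than in sedentary mice on both diets. On HFD it was 3127, 3807, 4087, 2688 and 2769 CPM in the trained mice, against 969, 1241, 1247, 1870 and 1765 CPM in the sedentary mice. The lowest trained value lay above the highest sedentary value. Means were 3296 ± 625 CPM in HFD trained and 1418 ± 383 CPM in HFD sedentary triceps (SD, n = 5 each). The log2 fold change was 1.40 (SE 0.21, adjusted p = 0.000855 by edgeR's quasi-likelihood test), or 2.64-fold. On chow it was 2908, 2316, 3201, 2809 and 2542 CPM in the trained mice, against 1190, 1758, 1959, 1204 and 1285 CPM in the sedentary mice. Again no value of either group reached the other, as was so for 4.38% of the genes tested on chow and 6.94% on HFD. Means were 2755 ± 340 CPM in trained and 1479 ± 355 CPM in sedentary mice (SD, n = 5 each). The log2 fold change was 1.04 (SE 0.21, adjusted p = 0.0255 by the same test), or 2.06-fold. Throughout, CPM are taken from library totals with no scaling factor, while edgeR's fold changes use scaled totals. Ratios of the means therefore differ from the folds given.

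Of the 3 genes tested in triceps, Ckm, Ckmt2 and Slc6a8, 1 was called (adjusted p below 0.05) for training on HFD, where 5.35% of 4410 genes were called, and the same 1 for training on chow, where 0.748% were. The call on HFD held in every fit that left out 1 library, with log2 fold changes from 1.27 to 1.53. On chow the fold change ran from 0.92 to 1.16, and the call was lost in 6 of 10 such fits, without chow trained replicates 1, 3 or 4 or chow sedentary replicates 1, 4 or 5, with adjusted p from 0.0540 to 0.0895. Within the block of 12 codes alone, the log2 fold change was 1.71 on HFD (adjusted p = 0.000201) and 1.37 on chow (adjusted p = 0.0373), and within the block of 5, all of them chow, it was 0.77 (adjusted p = 0.0338).

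Between diets, Ckmt2 did not pass the test. The log2 fold change of HFD over chow was 0.25 (95% interval −0.19 to 0.69) in trained and −0.12 (−0.56 to 0.33) in sedentary triceps. The diet by training interaction was 0.36 (SE 0.30, adjusted p = 0.986), so the larger fold on HFD was not shown to differ from that on chow. No member was called for diet in sedentary mice, diet in trained mice or the interaction in triceps, where 0%, 0% and 0% of genes were called by edgeR. At an unadjusted p under 0.05, members numbered 0, 1 and 0 in these contrasts, and DESeq2 and limma voom called 0 members in each.

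Ckm, the cytosolic kinase, had lower means in trained mice but was not called. It was 7294, 5854, 7822, 7052 and 6653 CPM in HFD trained triceps, against 10454, 12774, 10721, 8490 and 8818 CPM in HFD sedentary triceps. The groups did not overlap in CPM, as was so for 6.94% of the genes tested, 258 of them lower and 48 higher in trained mice. The log2 fold change was −0.38 (SE 0.12) with an adjusted p of 0.0524, which missed the threshold. DESeq2 gave −0.38 (adjusted p = 0.00695), limma voom −0.37 (adjusted p = 0.0437), and the fit on total counts with no scaling factor −0.57 (adjusted p = 0.00121). That last scale, which the CPM and their overlap share, also moved the median of all genes by −0.19. On chow, Ckm averaged 8763 ± 602 CPM in trained and 10709 ± 1108 CPM in sedentary triceps (SD, n = 5 each), a log2 fold change of −0.16 (SE 0.12, adjusted p = 0.682), and the groups overlapped. Between the trained groups it was lower on HFD, with 6935 ± 738 CPM against 8763 ± 602 CPM on chow, without overlap (as for 1.32% of genes), at a log2 fold change of −0.35 (SE 0.12, adjusted p = 0.622).

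Beside Ckm, the sum of the fast muscle markers also had lower means in trained mice, with overlapping groups on each diet and no test of the sum. The 15 fast muscle markers summed to 112012 ± 20641 CPM in HFD trained and 159422 ± 21464 CPM in HFD sedentary triceps, and to 133202 ± 15949 CPM in chow trained and 163743 ± 13354 CPM in chow sedentary triceps (SD, n = 5 each). Per 1000 reads of these markers, Ckm had 51.1 to 80.6 reads in HFD trained and 59.3 to 68.4 reads in HFD sedentary triceps, a log2 difference of −0.04 (exact permutation test, two-sided, p = 0.810, adjusted p = 0.925 over 8 tests). On chow it had 60.5 to 72.1 reads in trained and 62.6 to 68.1 reads in sedentary triceps (log2 difference 0.02, exact permutation test, p = 0.738, adjusted p = 0.925). This measure was chosen after the values of its parts had been seen. In HFD trained mice, the pair of libraries with brain reads held 51.1 and 52.5, and the other 3 held 65.0 to 80.6.

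As a description, the ratio of the pair of kinases is given without its p-values. It was chosen after both genes had been seen, and on HFD neither gene overlapped between the groups. Its permutation tests are among the 8 over which the p-values of Ckm per marker read were adjusted. Per 1000 Ckm reads, Ckmt2 had 381 to 650.2 reads in HFD trained and 92.8 to 220.3 reads in HFD sedentary triceps, a log2 difference of 1.79. On chow it had 248 to 403 reads in trained and 106 to 217 reads in sedentary triceps, a log2 difference of 1.21. Among trained mice the ranges on HFD and on chow overlapped, with a log2 difference of 0.59, and among sedentary mice the log2 difference was below 0.01. Within the block of 12 codes the training differences of the ratio were 2.09 on HFD (3 against 4 libraries) and 1.65 on chow (3 against 2).

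**Figure D2:**
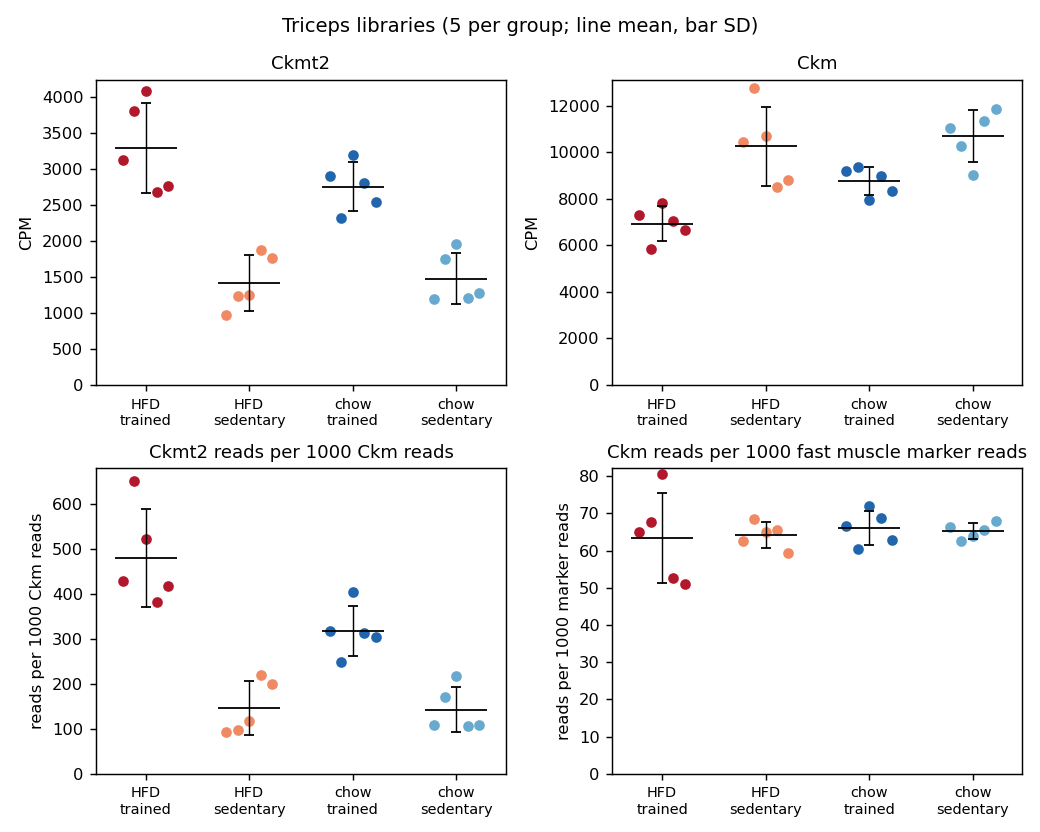
The 4 panels plot triceps libraries by group (5 points each, mean line, SD bar): Ckmt2 and Ckm in CPM, Ckmt2 reads per 1000 Ckm reads, and Ckm reads per 1000 fast muscle marker reads. Trained groups lie above sedentary groups without overlap for Ckmt2 and for its ratio to Ckm on each diet, while Ckm per marker read stays between 51.1 and 80.6 in all 20 libraries.

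Slc6a8, through which muscle takes up creatine, was at 5 to 18 reads in every triceps library. In HFD trained mice it had 7, 7, 10, 7 and 7 reads, against 18, 15, 13, 11 and 18 reads in HFD sedentary mice. These groups did not overlap in CPM either, as was so for 6.94% of the genes tested, 258 of them lower and 48 higher in trained mice. Neither reads nor CPM carry a scaling factor. The log2 fold change was −0.82 (SE 0.30, adjusted p = 0.111 by edgeR), which did not pass the test. On total counts with no scaling factor it passed (adjusted p = 0.0386), and DESeq2 left Slc6a8 without an adjusted p. On chow it had 11, 7, 5, 10 and 18 reads in trained and 6, 13, 16, 14 and 7 reads in sedentary triceps, overlapping throughout (log2 fold change −0.07, 95% interval −0.67 to 0.54). The interaction was −0.75 (SE 0.43, adjusted p = 0.986).

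Ckb and Gatm were below the filter on low counts in triceps. Ckb had 15, 13 and 7 reads in the 3 libraries with brain reads and 0 to 6 reads in the other 17; the part of brain RNA in those 3 values was not tested. Gatm had 0 to 6 reads in all 20 triceps libraries.

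In scWAT, Ckm ranged widely within 3 of the 4 groups. Ckm counts were 104, 5, 32, 44 and 40 in HFD trained, 20, 424, 551, 3146 and 47 in HFD sedentary, 485, 19, 5673, 2768 and 784 in chow trained, and 1660, 5, 159, 58 and 49 in chow sedentary mice. Every group held a library under 60 reads, and only HFD trained held none above 104. Its log2 fold change between HFD and chow in trained mice was −5.85 (SE 1.82, adjusted p = 0.0693) and between trained and sedentary mice on HFD −4.37 (SE 1.70, adjusted p = 0.317), neither of which passed edgeR's test. DESeq2 called the first (adjusted p = 0.00109) and the interaction (−6.98, adjusted p = 0.0421; edgeR −6.94, adjusted p = 0.495). Ckmt2 followed with 10, 0, 1, 3 and 1 reads in HFD trained, 1, 14, 17, 213 and 3 in HFD sedentary, 41, 1, 123, 35 and 70 in chow trained and 155, 0, 12, 3 and 0 in chow sedentary scWAT.

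The scWAT libraries high in Ckm were also high in fast muscle markers. The fast muscle markers summed to 162 to 1251 reads in HFD trained, 307 to 40975 in HFD sedentary, 186 to 63615 in chow trained and 114 to 17517 in chow sedentary scWAT. Across the 20 scWAT libraries, the genes whose log2 CPM was most like that of Ckm were Acta1 (Pearson r 0.997), the skeletal muscle actin, Tnnc2 (0.995), the fast troponin C, and Tnnt3 (0.994), the fast troponin T. For Ckmt2 they were Cox6a2 (0.963), the muscle form of a cytochrome oxidase subunit, Pgam2 (0.960), the muscle phosphoglycerate mutase, and Atp2a1 (0.957), the fast calcium pump. These are descriptions over libraries that share their muscle reads. With the muscle marker sum as a covariate, the difference of Ckm between HFD and chow in trained mice shrank to −0.59 (SE 0.24, adjusted p = 0.14) and that between trained and sedentary mice on HFD to −0.07 (SE 0.22, adjusted p = 0.942).

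Set against muscle itself, scWAT had slightly more Ckm and much less Ckmt2 per muscle read. Per 1000 fast muscle marker reads, Ckm had a median of 81.2 reads in scWAT (30.9 to 106) and 65.3 reads in triceps (51.1 to 80.6). Within animals the log2 ratio was higher in scWAT by 0.26 ± 0.42 (SD, n = 20), in 16 of 20 mice (permutation test of 100000 sign changes, two-sided, p = 0.0137). Ckmt2 had a median of 3.31 reads in scWAT (0 to 8.85) and 14.7 reads in triceps (5.80 to 44.0). It was lower in scWAT by 1.84 ± 1.29 on the log2 scale in 19 of 20 mice (permutation test, two-sided, p = 2e-05, the smallest that the draws can give). In the 10 scWAT libraries with 1000 or more marker reads, a limit set after seeing the data, Ckm was higher by 0.43 ± 0.14 in 10 of 10 mice (permutation test over all 1024 sign patterns, p = 0.00195) and Ckmt2 lower by 1.70 ± 1.31 in 9 of 10 (p = 0.00391 by the same permutation test). The ratio of each mouse's own triceps would give 7.14 to 4587 Ckm reads in its scWAT. The Ckm reads found were 0.46 to 1.69 times that, with a median of 1.30. Ckmt2 reads found were 0 to 1.24 times the number so given in chow sedentary and 0.06 to 0.43 times in chow trained mice. On HFD they were 0.32 to 0.56 times in sedentary and 0 to 0.29 times in trained mice. The permutation tests pooled all groups, while triceps Ckmt2 was higher in trained mice, and the part of this was not tested. No scWAT library shared a code block with a triceps library, so tissue and block cannot be told apart.

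After this division, no group difference in scWAT passed the test. Of the 8 comparisons, the one with the lowest p was Ckm per marker read in HFD trained against chow trained mice, with a log2 difference of −0.66 and no overlap (exact permutation test, two-sided, p = 0.00794, the smallest that 5 against 5 libraries can give, adjusted p = 0.0635). HFD trained scWAT had 162 to 1251 marker reads and chow trained scWAT 186 to 63615, and the part of this in the difference was not tested. In the 12 vWAT libraries outside the blocks with heart or muscle reads, Myl1 and Acta1 alone made 55.6% and 28.8% of the 75 to 249 marker reads, while Ckm was at 0 to 2 reads in 11 of them. The other 7 comparisons had adjusted p from 0.381 to 0.984.

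**Figure D3:**
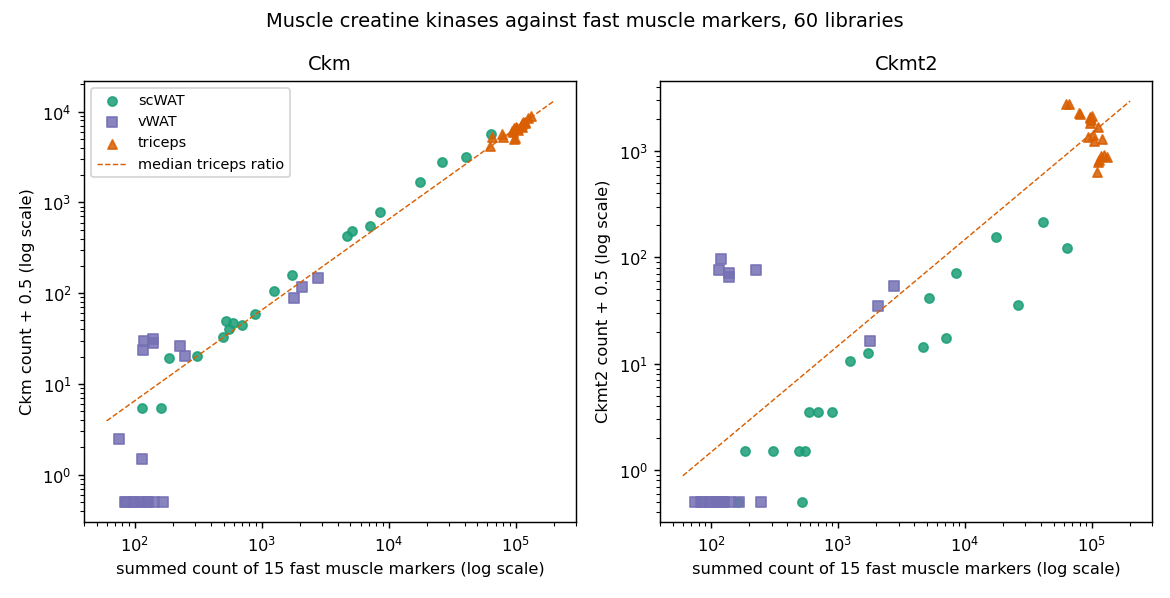
Ckm (left) and Ckmt2 (right) counts plus 0.5 are plotted against the summed count of 15 fast muscle markers, both on log scales, for 20 libraries of each tissue, with a dashed line at the median triceps ratio (65.3 and 14.7 reads per 1000 marker reads). scWAT libraries follow the line for Ckm over the range from 114 to 63615 marker reads and lie below it for Ckmt2, and the 5 vWAT libraries with heart reads lie far above it for Ckmt2.

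Ckb, Gatm and Slc6a8 had few reads in scWAT. Ckb had 15, 14, 27, 13 and 16 reads in HFD trained, 14, 21, 25, 23 and 28 in HFD sedentary, 13, 8, 16, 15 and 14 in chow trained, and 11, 12, 9, 17 and 14 in chow sedentary scWAT. Its highest mean was in HFD sedentary mice, at 34.1 ± 9.2 CPM, against 20.5 ± 5.6 CPM in chow sedentary mice (SD, n = 5 each; log2 fold change 0.55, SE 0.27, adjusted p = 0.238), which did not pass the test. The triceps ratio would give at most 1.62 Ckb reads from muscle in any scWAT library. Gatm had 3 to 26 reads, with group means from 12.1 ± 7.6 CPM in chow sedentary to 18.2 ± 10.8 CPM in HFD sedentary mice. Its log2 fold changes lay between −0.40 and 0.36 over the 4 comparisons of groups, and none passed the test.

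Slc6a8 had 1 to 8 reads in scWAT and was below the filter. In HFD sedentary mice it had 3, 4, 3, 5 and 8 reads, against 2, 1, 2, 1 and 1 in chow sedentary mice. On the deposited log2 values the groups differed by 1.27 (exact permutation test, two-sided, p = 0.00794, adjusted p = 0.159 over the 20 comparisons of members below the filter), which did not pass. These values carry no scaling factor. In edgeR's fit, leaving out that factor moved the median of all genes by 0.19 in this comparison. At so few reads, the 1 added to CPM also affects the size of the difference. The other 19 of these comparisons had adjusted p from 0.476 to 1.

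No member was called in scWAT for HFD against chow in sedentary mice, HFD against chow in trained mice, training on HFD, training on chow or the interaction, where edgeR called 6.35%, 5.16%, 1.00%, 0% and 0% of 7069 genes. At an unadjusted p under 0.05, edgeR gave 0, 2, 2, 0 and 2 members in this order, all of them Ckm or Ckmt2. DESeq2 called 0, 1, 0, 0 and 1, and limma voom none. Without the libraries holding over 100 lymph node marker reads, edgeR called no member in any of them.

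In vWAT, Ckm and Ckmt2 varied with the code blocks, of which the block of 5 held chow and the block of 3 HFD mice alone. In the block of 3 with fast muscle reads, Ckm had 87, 147 and 115 reads and Ckmt2 16, 53 and 34. Per 1000 marker reads this was 48.5 to 55.7 Ckm reads and 8.93 to 19.1 Ckmt2 reads. These 3 libraries share their block of 12 codes with 5 triceps libraries, whose part in these reads was not tested. In the block of 5 with heart reads the order of the pair turned, with Ckm at 23 to 31 and Ckmt2 at 65 to 96 reads, and markers of slow fibres, which the heart shares, at 481 to 632 reads. In the block of 12, which held libraries of all 4 groups, Ckmt2 was at 0 reads in every library, which allows up to 3 reads in each. Ckm was at 0 to 2 reads in 11 of these libraries and at 20 in chow trained replicate 3. That library also held 2158 reads of 6 smooth muscle markers, against 135 to 511 in the other 11 libraries of the block.

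No member was called in vWAT for HFD against chow in sedentary mice, HFD against chow in trained mice, training on HFD, training on chow or the interaction, where 8.07%, 2.62%, 3.09%, 0.587% and 0.0143% of 6990 genes were called. No member reached an unadjusted p under 0.05 in any of them by edgeR, and limma voom called none, nor did DESeq2, which gave no adjusted p to a member for the interaction.

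**Figure D4:**
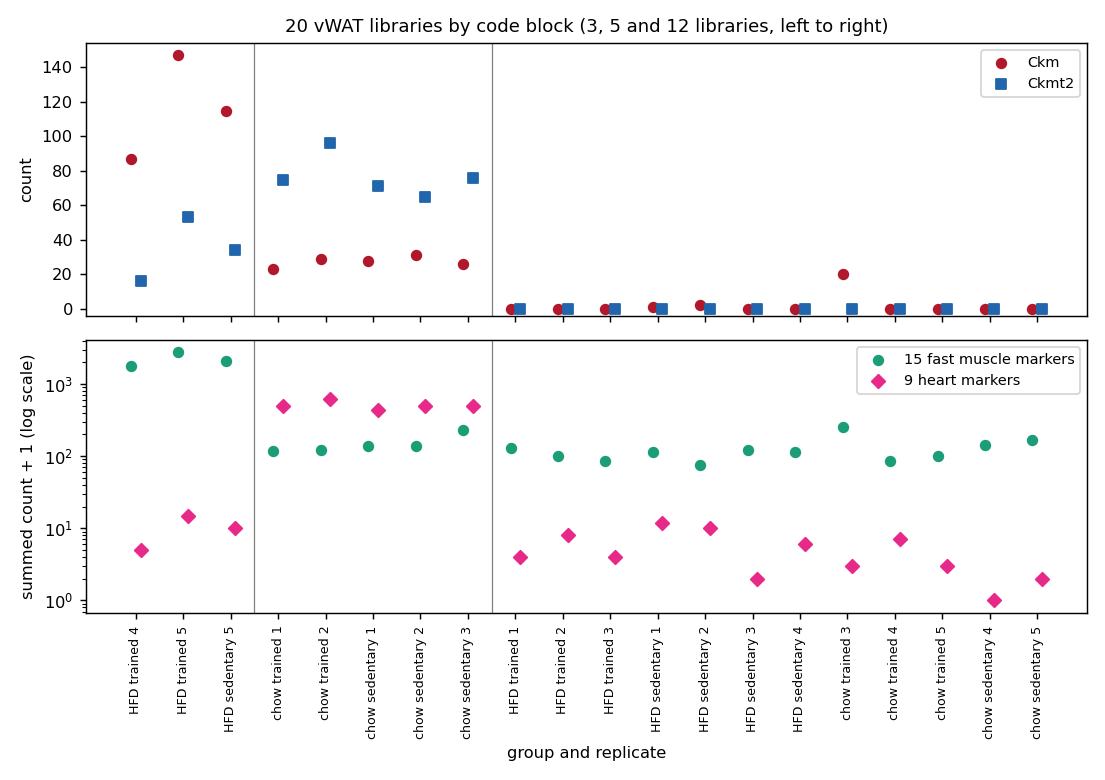
The upper panel shows Ckm and Ckmt2 counts and the lower panel the summed counts plus 1 (log scale) of 15 fast muscle and 9 heart markers in the 20 vWAT libraries, ordered by code block and, within a block, by group. Ckm is above Ckmt2 in the block of 3, below it in the block of 5, and Ckmt2 is at 0 in all of the block of 12.

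Ckb was the one kinase found in every vWAT library, at 17 to 101 reads. It had 33, 97, 31, 25 and 20 reads in HFD trained, 37, 37, 29, 64 and 53 in HFD sedentary, 17, 20, 101, 21 and 24 in chow trained and 31, 24, 33, 34 and 28 in chow sedentary vWAT. A single library stood far above the rest in each trained group. In chow trained replicate 3 this was the library with 2158 smooth muscle marker reads, and in HFD trained replicate 2 those markers were at 409 reads, within the range of the block. Across the 20 vWAT libraries, log2 counts of Ckb and of these markers had a Pearson r of 0.73. For mesothelial markers it was 0.11 and for fast muscle markers −0.04. These are descriptions over libraries that share depth. The 0.73 includes chow trained replicate 3, while the other vWAT libraries held 100 to 511 smooth muscle marker reads. No r was computed without that library. The genes most like Ckb were Gm42031 (r 0.889), Gm4316 (0.848) and Cystm1 (0.801). Its log2 fold changes between groups lay between −0.11 and 0.36, with SEs of 0.49 to 0.52. Gatm had 1 to 13 and Slc6a8 0 to 10 reads in vWAT, both below the filter. Slc6a8 had 6, 4, 10, 3 and 6 reads in HFD trained and 0, 2, 3, 5 and 2 in chow trained vWAT, with an adjusted p of 0.476 (exact permutation test over the same 20 comparisons).

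Between the depots of the same animals, Ckb was lower in scWAT than in vWAT in 20 of 20 mice. In HFD trained mice it was 20.0 to 43.2 CPM in scWAT and 34.0 to 144 CPM in vWAT, a log2 fold change of −1.06 (SE 0.30, adjusted p = 0.0337). In chow trained mice it was 13.1 to 25.7 CPM in scWAT and 25.9 to 169 CPM in vWAT (−1.10, SE 0.32, adjusted p = 0.0261), and in chow sedentary mice 12.5 to 26.0 CPM in scWAT and 39.1 to 53.4 CPM in vWAT (−1.19, SE 0.32, adjusted p = 0.0126). In HFD sedentary mice it was 20.5 to 43.7 CPM in scWAT and 43.7 to 92.9 CPM in vWAT (−0.88, SE 0.28, adjusted p = 0.0703), which missed the threshold. Of the 4 members in the joint fit, all but Slc6a8, Ckb was the 1 called in HFD trained, chow trained and chow sedentary mice, where 6.34%, 10.7% and 12.1% of 7931 genes were called, and none was in HFD sedentary mice, where 5.51% were. At an unadjusted p under 0.05, edgeR gave 2 members there, Ckb and Ckm, and limma voom called none.

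The size of the depot difference rested in part on the pair of vWAT libraries named above. Without chow trained replicate 3 it was −0.57 in chow trained mice (adjusted p = 0.327), and without HFD trained replicate 2 it was −0.59 in HFD trained mice (adjusted p = 0.365). In chow sedentary mice, where no library stood apart, the call was lost without replicate 1 or 3 (adjusted p = 0.0540 and 0.0582). It was also lost without chow trained replicate 2 (adjusted p = 0.0765) and without HFD trained replicates 1 or 4 (adjusted p = 0.0923 and 0.0625). Without the animal as a block, the call was lost in HFD trained (adjusted p = 0.0851) and chow sedentary mice (adjusted p = 0.0754) and held in chow trained mice (adjusted p = 0.0350). No scWAT library shared a code block with a vWAT library, so depot and block cannot be told apart. The effect of diet or training on Ckb was not shown to differ between depots: the differences were 0.31 and 0.04 for HFD in sedentary and trained mice, and −0.18 and 0.09 for training on HFD and on chow, all with SEs of 0.42 to 0.45. No member was called in these 4 contrasts, where 1.61%, 0.542%, 0% and 0% of genes were called by edgeR and no member reached an unadjusted p under 0.05, while limma voom called 0, 1 (Ckm), 0 and 0 members.

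**Figure D5:**
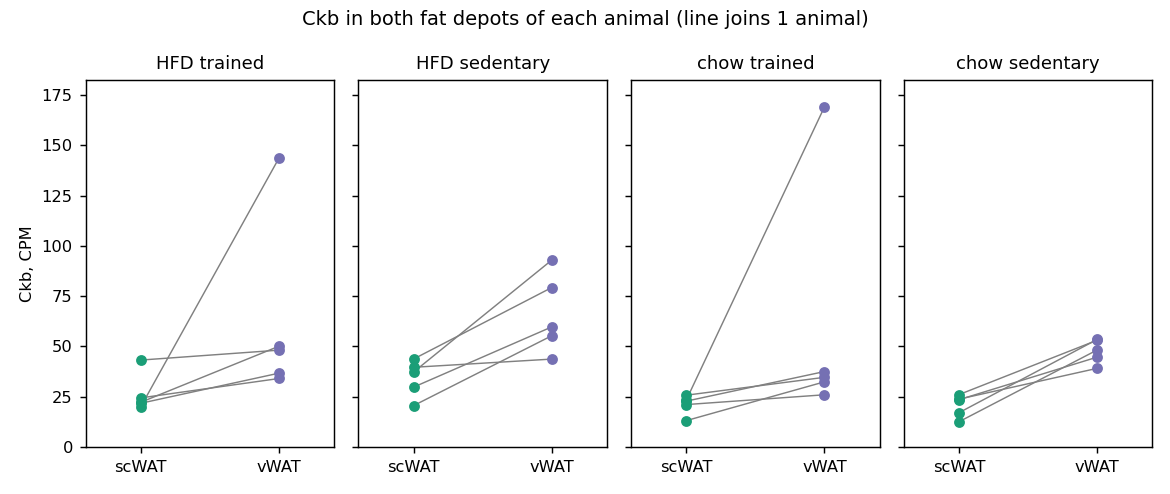
Ckb in CPM is plotted in scWAT and vWAT of each animal, joined by a line, with 5 animals in each of the 4 groups. All 20 lines run upward to vWAT, and the highest vWAT values, 169 CPM in chow trained and 144 CPM in HFD trained mice, are single libraries.

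Other genes around the creatine pathway were taken from a list of 23 genes, among them Gamt (the second step of creatine synthesis), Ckmt1 (the ubiquitous mitochondrial kinase), adenylate kinases, the adenine nucleotide carriers and voltage-dependent channels that pair with mitochondrial kinase, and enzymes that make or use arginine and ornithine. Of these, 14 were tested in scWAT, 15 in vWAT and 13 in triceps. For HFD against chow in sedentary scWAT, 1 rose and 0 fell, and in trained scWAT 1 rose and 0 fell. In sedentary vWAT under HFD, 1 rose and 1 fell. Over all genes tested, 6.35%, 5.16% and 8.07% were called in these comparisons, and 1 of 14, 1 of 14 and 2 of 15 genes of the list are near those shares. The list's median log2 fold changes in these 3 comparisons were 0.05, −0.06 and −0.14, beside −0.05, −0.03 and −0.01 over all genes tested. In none of the other 12 tissue comparisons was a gene of the list called.

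The gene that rose was Oat, the mitochondrial ornithine aminotransferase, which removes the ornithine that Gatm releases. In scWAT it was 184 ± 56 CPM in HFD sedentary and 96.7 ± 21.7 CPM in chow sedentary mice (log2 fold change 0.74, SE 0.20, adjusted p = 0.0292), and 180 ± 23 CPM in HFD trained and 84.1 ± 16.7 CPM in chow trained mice (0.81, SE 0.20, adjusted p = 0.0206; SD, n = 5 each). Lymph node marker reads also differed by diet in scWAT, and their part in these differences of Oat was not tested. In vWAT Oat was 195 ± 10 CPM in HFD sedentary and 124 ± 13 CPM in chow sedentary mice (0.45, SE 0.14, adjusted p = 0.0339). Slc25a4, the adenine nucleotide carrier of heart and muscle, fell to 453 ± 34 CPM in HFD sedentary vWAT, against 546 ± 109 CPM in chow sedentary vWAT (−0.47, SE 0.15, adjusted p = 0.0373); 3 of those 5 chow libraries were the ones with heart reads, whose part in this was not tested. Ckmt1 had at most 7 reads in any library.

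In triceps, the genes whose log2 CPM was most like that of Ckmt2 over the 20 libraries were Mdh1 (Pearson r 0.987), the cytosolic malate dehydrogenase, Acaa2 (0.969), a thiolase of mitochondrial fatty acid oxidation, and Sdhb (0.968), a subunit of succinate dehydrogenase. For Ckm they were Tnni2 (0.886), the fast troponin I, Ak1 (0.866), the cytosolic adenylate kinase, and Gm42636 (0.858). Slc6a8 was most like Dag1 (0.779), Cops5 (0.709) and Rab14 (0.700). In vWAT, Ckmt2 was most like Cox7a1 (0.946), Tpm1 (0.945) and Hadhb (0.890), and Ckm most like Tpm1 (0.936), Cox7a1 (0.770) and Mrpl43 (0.746), in libraries that share heart or muscle reads. In scWAT, Ckb was most like Exoc1 (0.776), Hook3 (0.761) and Pbld1 (0.755), and Gatm most like Gbp6 (0.662), Nek7 (0.629) and Pmp22 (0.620). These correlations describe 20 libraries per tissue, ranked among the 2157 to 3858 genes with enough reads.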

How the data were processed

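Bulk 3′ digital gene expression was measured in 60 libraries of 20 mice. Per the labels' protocols, cDNA from 12 wells was pooled before amplification. Reads were quantified with Salmon 0.14.2 against mm10, as the submitters' processing notes name them. Each library has a column of estimated counts, already whole numbers as deposited, and a column of log2 CPM, as marked in the file headers. The deposited log2 values were made by the authors; 0 counts stand at 0 there, as in log2 of CPM plus 1, and they differ from those of the whole-number counts by up to 0.99. Use of strand or molecular identifiers is not given in the sources used here, so reads of A930016O22Rik, antisense in Ckm (at most 3 per library), and of 1700119I11Rik, in Ckmt2 (at most 1), cannot be told apart from them; Ckb-ps1 and Ckb-ps2 had 0. A 3′ tag count does not scale with transcript length. Fold changes compare 1 gene between libraries; ratios to Ckm or marker reads, and counts of Ckm beside Ckmt2, set different genes side by side within a library.

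The 5 members, the gene lists and the tests were chosen with earlier results of these data known. Separate fits per tissue used edgeR 4.0.16 (TMM, filterByExpr by group, robust quasi-likelihood) in R 4.3.3 on all 4 groups of the tissue. P-values are two-sided, Benjamini-Hochberg adjusted over all genes tested, and called below 0.05; 95% intervals use the t distribution of the fit. Depots were fitted jointly with the animal as a block, since the labels' animal codes link the libraries of a mouse. Replicate numbers within a tissue name different mice. Same-numbered libraries deviated together at a correlation above 0.1 in every pair only in scWAT, trained against sedentary on chow (0.16 to 0.62). All pairs were also positive in scWAT for HFD against chow in trained mice (0.069 to 0.338) and training on HFD (0.095 to 0.219). In each of these the fit with the replicate number as a block called 0 members. Ratios used an added count of 0.5 and exact permutation tests (scipy 1.17.1). All 5 members are named whatever their test gave, up to 4 called genes of the pathway list per tissue, and per member and tissue the 3 genes with the highest Pearson r among those with a mean log2 CPM of at least 5. Alternatives were DESeq2 1.42.0, limma 3.58.1, other scalings and filters, replicate and code blocks, and leaving out libraries. Counts were also simulated for training on HFD. In triceps (4294 genes), 87% of changes of 1 and 100% of changes of 2 on the log2 scale were recovered. In scWAT (6702 genes) these shares were 64% and 94%, and in vWAT (6746 genes) 76% and 98%. Of the genes called in these tissues, in this order, 6.97%, 7.60% and 6.95% had not been changed. The changed genes were drawn only from those with mean counts above those of Slc6a8 in triceps and Gatm in scWAT. The shares recovered therefore do not cover those members. The shares are also averages over drawn genes, each with its own spread. For training on HFD, the SEs of Ckm and Ckmt2 were 1.70 and 1.79 in scWAT and 1.38 and 1.84 in vWAT. The shares do not describe the power for genes with such SEs.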

Additional observations from a re-analysis of the deposited data

Results flagged for a closer look

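Groups of 5 libraries were checked at both ends for a value far from the other 4, with a gap above 0.71 of the group's range. For normally distributed values, chance gives such a gap at either end in about 1 in 20 groups. Skewed values and low counts need not follow that rate. In 13 of 60 combinations of gene, tissue and group, the highest value stood apart in this way.

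Of these, 4 were the muscle kinases in scWAT. In HFD sedentary replicate 4, Ckm was at 5088 CPM, with the next library at 872 CPM, and Ckmt2 at 344 CPM, with the next at 26.9 CPM; this library held 40975 fast muscle marker reads. In chow sedentary replicate 1, Ckm was at 2564 CPM (next 221 CPM) and Ckmt2 at 239 CPM (next 16.7 CPM), with 17517 marker reads. Also in scWAT, Gatm reached 36.8 CPM in HFD sedentary replicate 2 (next 17.6 CPM), and Ckb 43.2 CPM in HFD trained replicate 3 (next 24.4 CPM).

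In vWAT, HFD sedentary replicate 5, of the block with fast muscle reads, had Ckm at 172 CPM (next 3.23 CPM) and Ckmt2 at 50.8 CPM, with the other 4 at 0. HFD trained replicate 5, of the same block, had Ckmt2 at 90.1 CPM (next 23.5 CPM). Ckb was at 144 CPM in HFD trained replicate 2 (next 50.1 CPM) and at 169 CPM in chow trained replicate 3 (next 37.5 CPM).

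In triceps, Ckb was at 18.5 CPM in HFD sedentary replicate 5 (next 4.26 CPM), a library with 152 brain marker reads, and Slc6a8 at 14.8 CPM in HFD trained replicate 3 (next 9.82 CPM), which are 10 and 7 reads.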

How the results depend on the processing

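For training on HFD in triceps the number of members called was 1, against 3 on total counts with no scaling factor, 2 with DESeq2, 2 with limma voom and 1 to 2 when 1 library was left out; on chow it was 1, against 0 to 1 when 1 library was left out. In scWAT it was 0, against 1 (Ckm) with DESeq2 for HFD in trained mice and 1 (Ckm) for the interaction. Between depots without the animal as a replicate block, 0 members were called in HFD trained, 0 in chow sedentary and 2 in chow trained mice. With all genes of at least 1 count, 2 were called in HFD trained, 3 in HFD sedentary, 3 in chow trained and 2 in chow sedentary mice, and 2 in each of the 4 depot differences of an effect. Limma voom called 2 in chow trained, 2 in chow sedentary mice and 1 (Ckm) for the depot difference of the HFD effect in trained mice. Leaving out 1 animal gave 0 to 1 in each of the 4 depot comparisons.

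Fold changes reversed only for Ckm and Ckmt2 in fat, none of them called. In scWAT, Ckm for training on chow was −1.12 in the block of 9 libraries alone (2.56 over all). Ckmt2 was 0.82 in that block and 0.85 with the muscle covariate for the interaction (−4.96), and 0.26 with that covariate for training on HFD (−4.13). In vWAT, Ckm for HFD in trained mice was −0.63 with limma voom, −3.22 with code block as a factor and −3.75 with the muscle covariate (1.52). With code block as a factor, Ckmt2 was 0.065 for HFD in sedentary (−2.91) and 0.021 in trained mice (−1.48). Uncalled values within 1 SE of 0 were given no direction. The causes were not tested.

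With the replicate number as a block, Ckmt2 in triceps was 1.38 on HFD (adjusted p = 0.00157) and 1.05 on chow (adjusted p = 0.0277), and no member's call changed in any tissue. Same-numbered libraries are different mice. Over the alternatives on the whole table, the count of genes called in triceps was 218 to 429 for training on HFD (236 in the chosen fit), 16 to 99 on chow (33), and 0 to 24 and 0 to 2 for HFD in sedentary and trained mice (0 each). In scWAT it was 0 to 822 for HFD in trained (365) and 0 to 724 in sedentary mice (449), 0 to 199 for training on HFD (71), 0 to 30 on chow (0) and 0 to 58 for the interaction (0). In vWAT it was 143 to 341 for HFD in trained (183) and 87 to 894 in sedentary mice (564), 66 to 357 for training on HFD (216), 6 to 83 on chow (41) and 0 to 34 for the interaction (1). Between depots it was 395 to 775 in HFD sedentary mice (437), and for the depot difference of an effect 71 to 467 for HFD in sedentary (128), 6 to 336 in trained mice (43), 0 to 113 for training on HFD (0) and 0 to 33 on chow (0). Leaving out scWAT libraries above 5000 muscle counts was not run for comparisons that leave chow trained mice with 1 library. Median reads per library were 2.5 for Ckb and 2 for Gatm in triceps, 3 for Slc6a8 in scWAT and 4 in vWAT, and 1.5 for Ckm and 0 for Ckmt2 in vWAT, so small differences there were not detectable at this depth.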
